A study of Mus musculus with 12 samples.

Results

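The EGF family genes measured here are 9 genes of the mouse, 6 ligand genes (Ereg, Areg, Hbegf, Tgfa, Btc and Epgn) and 3 receptor genes (Egfr, Erbb2 and Erbb3). They were taken by symbol from a deposited table of read counts for 35869 gene symbols, and all 9 were among the 13987 genes with enough counts to be tested. The libraries are from colonoids, which are hollow balls of epithelium raised in a gel from crypts of the mouse colon. Polyadenylated RNA of 4 groups of C57BL/6 cultures was sequenced, with 3 libraries in each group. One group was unstimulated, and the others were exposed for 12 h to recombinant mouse IL-22 at 1 ng/mL, to recombinant mouse IL-1b at 100 ng/mL, or to both cytokines. Every culture, the unstimulated ones included, was grown in Matrigel in a medium that held 50 ng/ml EGF, which is itself a ligand of the EGF receptor, and 20% L-WRN conditioned medium. The number of mice, the timing of the unstimulated cultures and the origin of the replicates (separate cultures or animals) were not stated, so each p-value reflects only how these libraries spread. IL-22, made by lymphoid cells, signals to epithelium by way of STAT3, and IL-1b, a cytokine of inflammation, signals by way of NF-kB.

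The ligands of this family are made as membrane-bound precursors, and metalloproteases of the ADAM family cut them free. The soluble domains bind EGFR, and HBEGF, BTC and EREG also bind ERBB4. Bound receptors pair with one another and signal through adaptors to the RAS and ERK cascade, which in turn induces inhibitors of the receptor and of the cascade. ERBB2 binds no known ligand and acts as a partner of the other receptors, and ERBB3, which has little kinase activity of its own, binds neuregulins. In the gut the pathway is known for its part in the growth and repair of the epithelium.

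The libraries held 4703902 to 5804033 counts. The 7 epithelial marker genes on the list (Epcam, Cdh1, Krt8, Krt18, Krt20, Vil1 and Cdx2) had counts in every library. They summed to 2058 to 2323 CPM in the 6 libraries without IL-22 and 2297 to 2635 CPM in the 6 with it. CPM are counts relative to the library total, scaled by TMM, which allows for differences in RNA composition between libraries. Their raw counts summed to 11710 to 12391 in each library. The TMM factors were 1.012 to 1.039 without IL-22 and 0.957 to 0.9935 with it. The reason for this shift was not tested. The 6 fibroblast markers summed to at most 1.66 CPM, the 4 smooth muscle markers to at most 19.6 CPM and the 4 markers of nerve and glia to 0.784 to 2.14 CPM. Most of the smooth muscle sum was Tagln, with group means of 15.7 to 17.1 CPM. The 7 leukocyte markers summed to 62.9 CPM in IL-1b replicate 1, to 13.5 and 9.65 CPM in the other IL-1b libraries and to 1.70 to 9.44 CPM in the other 9 libraries. The 4 endothelial markers summed to 7.97 to 11.8 CPM in the 6 libraries without IL-22 and to 1.72 to 5.49 CPM in the 6 with it. Of these, Pecam1 had 25 to 49 counts without IL-22 and 4 to 21 with it, and 1 or 2 of the 4 markers were at 0 in each library. Kdr and Cdh5 had group means of at most 0.0688 CPM, so the endothelial sum was nearly all Pecam1 and Vwf. The part of RNA from other cell types in the results below was not tested. Fewer cells of a type and less RNA per cell cannot be told apart in RNA of whole cultures.

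The ligand genes Epgn, Ereg, Areg and Btc lie side by side on chromosome 5, within 376 kb (mm10, bases 91027464 to 91402994), and the first 3 are on the plus strand and Btc on the minus strand. The 250 bases before the RefSeq start of Areg, Epgn and Btc (build GRCm38.p6, 5′ to 3′ on the strand of each gene) are shown because these neighbours all rose with IL-22. Capitals mark the matches found, at chr5:91139349-91139598 (+) for Areg, chr5:91027267-91027516 (+) for Epgn and chr5:91402995-91403244 (-) for Btc.
Areg promoter: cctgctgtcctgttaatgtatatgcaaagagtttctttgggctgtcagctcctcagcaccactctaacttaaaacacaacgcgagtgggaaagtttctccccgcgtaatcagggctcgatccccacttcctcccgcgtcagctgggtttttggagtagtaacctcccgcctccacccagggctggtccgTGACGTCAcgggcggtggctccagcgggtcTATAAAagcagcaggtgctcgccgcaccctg
Epgn promoter: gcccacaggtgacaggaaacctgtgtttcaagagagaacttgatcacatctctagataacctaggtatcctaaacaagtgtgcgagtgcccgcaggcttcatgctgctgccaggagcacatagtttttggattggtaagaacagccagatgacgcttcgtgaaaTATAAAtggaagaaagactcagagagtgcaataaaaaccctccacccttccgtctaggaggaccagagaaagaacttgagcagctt
Btc promoter: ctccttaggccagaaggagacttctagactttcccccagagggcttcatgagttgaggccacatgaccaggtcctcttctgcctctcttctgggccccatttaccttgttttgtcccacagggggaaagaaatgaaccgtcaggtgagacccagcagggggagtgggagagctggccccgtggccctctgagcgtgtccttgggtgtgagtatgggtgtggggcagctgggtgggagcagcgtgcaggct

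RefSeq promoter windows of 6 of the 9 genes are reported here, and none of Ereg, Hbegf or Erbb3. Both strands were searched for TGACGTCA (the cyclic AMP response element), TATAAA (the TATA box), TTCNNNGAA (the STAT motif), TGANTCA (the AP-1 motif) and the NF-kB motif. None of these motifs overlaps another in the windows shown. Areg held TGACGTCA from 61 to 54 bases and TATAAA from 31 to 26 bases before its start. Epgn held TATAAA from 86 to 81 bases before its RefSeq start. That start lies inside Epgn as placed above, since the window ends at base 91027516 and the gene begins there at 91027464. Among 32851 mouse promoter windows of 250 bases, 1.55% held TGACGTCA and 12.4% held TATAAA. No STAT, AP-1 or NF-kB match was found in the windows of Areg, Epgn, Btc, Tgfa, Egfr and Erbb2, against 7.02%, 6.75% and 7.25% of all windows. A match is a run of letters in this window and says nothing about binding.

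With IL-22 alone, all 6 ligand genes and Egfr rose, while Erbb2 and Erbb3 did not pass the test. The changes ran from 1.20-fold for Tgfa to 2.58-fold for Epgn, with Hbegf at 1.78-fold and Ereg at 2.06-fold. Of the 13987 genes tested, 22.5% passed in this comparison and 11.9% passed as higher, against 7 of the 9 family genes, all 7 of them higher. The median log2 fold change of the 9 genes was 0.59, and that of all genes tested was -0.000358. Both cytokines together raised the same 7 genes against unstimulated cultures, and IL-1b alone raised none. The treatment groups were each compared with the same 3 unstimulated libraries. Every IL-22 library lay above every unstimulated one for 17.7% of all genes tested. With both cytokines that share was 21.8%. The share for all 6 libraries with IL-22 against the 6 without it was not counted.

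Ereg encodes epiregulin, a ligand that binds EGFR and ERBB4 (chromosome 5, 91074622 to 91093646). It stood at 27.8, 12.4 and 21.1 CPM in the unstimulated libraries, at 52.0, 41.9 and 32.8 CPM with IL-22, at 19.9, 24.1 and 20.1 CPM with IL-1b and at 65.4, 61.0 and 39.7 CPM with both. Every library with IL-22 was above every library without it, and the libraries with both cytokines overlapped those with IL-22 alone. The log2 fold change was 1.04 ± 0.25 (SE) with IL-22 (Benjamini-Hochberg adjusted p = 0.00853 in the quasi-likelihood test of edgeR) and 1.44 ± 0.25 with both cytokines (adjusted p = 0.000684). Over 21 alternative settings the change with both cytokines lay between 1.18 and 1.73 on the log2 scale, and it passed each time. Of its 4128 exon bases, 141 are shared with an antisense gene model, Gm19610, so its count is uncertain to that extent, since the strand used in counting is not given.

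Areg encodes amphiregulin, a ligand of EGFR alone (chromosome 5, 91139599 to 91148432). The unstimulated libraries held 91.6, 81.7 and 102 CPM, those with IL-22 held 128, 133 and 119 CPM, those with IL-1b held 89.1, 81.3 and 90.0 CPM, and those with both held 123, 118 and 129 CPM. The 6 libraries with IL-22 did not overlap the 6 without it. The log2 fold change was 0.47 ± 0.08 with IL-22 (adjusted p = 0.000857) and 0.43 ± 0.08 with both (adjusted p = 0.0012). In raw counts the 6 libraries with IL-22 lay close together, at 620, 601 and 629 with IL-22 and 607, 604 and 602 with both, although their totals differed. Areg had 0.454 counts per exon base on average, the most of the 9 genes. Scatter was taken around the count expected from the group total and the scaled depth of each library, not around the raw mean. For Areg it was 2.65 times that of counting over all libraries (chi-square per degree of freedom). Epcam counts also lay close together, at 1373 to 1481 in all 12 libraries, where totals ran from 4703902 to 5804033. Removing the trend on count per exon base lowered the change of Areg with IL-22 to 0.35. Whether counts level off at such abundance was not tested. Levelling off would understate the level and share of Areg and could shift its fold change either way.

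Hbegf encodes heparin-binding EGF-like growth factor, a ligand held at the cell surface by heparan sulphate (chromosome 18, 36504927 to 36515805, minus strand). Its level was 61.7, 57.1 and 65.6 CPM in unstimulated cultures, 112, 119 and 98.5 CPM with IL-22, 54.4, 57.4 and 63.2 CPM with IL-1b, and 101, 102 and 101 CPM with both. The lowest library with IL-22, at 98.5 CPM, was well above the highest without it, at 65.6 CPM. Hbegf rose by 0.83 ± 0.08 on the log2 scale with IL-22 (adjusted p = 9.05e-06) and by 0.72 ± 0.08 with both (adjusted p = 2.35e-05), the lowest adjusted p-values among the 9 genes in these comparisons.

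Btc encodes betacellulin, a ligand of EGFR and ERBB4 (chromosome 5, 91357261 to 91402994, minus strand). Unstimulated libraries held 43.1, 27.3 and 36.8 CPM, IL-22 libraries 69.6, 59.4 and 60.5 CPM, IL-1b libraries 47.8, 37.1 and 42.6 CPM, and libraries with both 69.8, 64.3 and 67.6 CPM. The groups with and without IL-22 did not overlap, and the IL-1b libraries overlapped the unstimulated ones. Btc rose by 0.82 ± 0.14 with IL-22 (adjusted p = 0.00069) and by 0.91 ± 0.13 with both (adjusted p = 0.000221).

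Epgn encodes epigen, the least abundant of the 6 ligand transcripts (chromosome 5, 91027464 to 91035215). Its counts were 20, 9 and 13 in unstimulated cultures, 28, 39 and 30 with IL-22, 23, 13 and 26 under IL-1b, and 51, 19 and 27 under both. In CPM the unstimulated libraries lay between 1.64 and 3.56, the IL-22 libraries between 5.66 and 8.64, and the libraries with both between 3.72 and 10.3. Epgn rose by 1.37 ± 0.39 on the log2 scale with IL-22 (adjusted p = 0.0221) and by 1.36 ± 0.39 with both (adjusted p = 0.0195). The change with IL-22 was lost without unstimulated replicate 2 (adjusted p = 0.101), unstimulated replicate 3 (0.0534) or IL-22 replicate 2 (0.0996). The change with both was lost without unstimulated replicate 2 (0.0864), or without replicate 1 of both cytokines, where it stood at 0.88 (adjusted p = 0.123).

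Tgfa encodes transforming growth factor alpha, a ligand of EGFR (chromosome 6, 86195223 to 86275719). It stood at 109, 99.3 and 92.9 CPM in unstimulated libraries, at 118, 126 and 120 CPM with IL-22, at 87.1, 98.2 and 93.0 CPM with IL-1b and at 109, 134 and 119 CPM with both. The IL-22 libraries lay above the unstimulated ones, whereas the lowest library with both cytokines, at 109.2 CPM, fell just under the highest unstimulated one, at 109.4 CPM. Its change was the smallest of the 6 ligands, at 0.27 ± 0.08 with IL-22 (adjusted p = 0.0286) and 0.26 ± 0.08 with both (adjusted p = 0.0282). With total counts as the only scaling the IL-22 change was 0.21 and no longer passed (adjusted p = 0.0594), and the call also went when unstimulated replicate 2, unstimulated replicate 3 or IL-22 replicate 2 was left out (adjusted p from 0.0882 to 0.108). The change with both was lost in 5 of 21 alternatives: without unstimulated replicate 2 or 3, without replicate 2 or 3 of both cytokines, and in a fit of the 2 groups by themselves (highest adjusted p = 0.109). Of its 6490 exon bases, 118 are shared with another gene model, Gm43917.

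Egfr, the receptor that binds all 6 ligands, was the single receptor gene that rose (chromosome 11, 16752203 to 16918158). The unstimulated libraries held 132, 103 and 150.2 CPM, the IL-22 libraries 215, 206 and 158 CPM, the IL-1b libraries 134, 118 and 120 CPM, and the libraries with both 156, 165 and 174 CPM. The libraries with IL-22 were all above those without it, by a narrow margin between the lowest with it, at 156 CPM, and the highest without it, at 150.2 CPM. Egfr rose by 0.59 ± 0.12 with IL-22 (adjusted p = 0.00399). With both cytokines it rose by 0.36 ± 0.13 (adjusted p = 0.0462), a call made in 7 of 21 alternatives. It was kept without unstimulated replicate 3, IL-22 replicate 1 or IL-22 replicate 3 and lost without any other single library, with the weakest value, 0.23, without unstimulated replicate 2 (adjusted p = 0.186).

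Erbb2 encodes the receptor that binds no known ligand (chromosome 11, 98412470 to 98437716). It stood at 344, 322 and 305 CPM unstimulated, 272, 324 and 304 CPM with IL-22, 323, 311 and 295 CPM with IL-1b, and 268, 339 and 275 CPM with both, and the 4 groups overlapped. The log2 fold change was -0.11 with IL-22 (95% interval -0.29 to 0.08, adjusted p = 0.402) and -0.14 with both (-0.32 to 0.05, adjusted p = 0.258). Without replicate 2 of both cytokines it passed as lower, at -0.25 (adjusted p = 0.0297).

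Erbb3 encodes the neuregulin receptor with little kinase activity (chromosome 10, 128567523 to 128589652, minus strand). It held 273, 259.9 and 278 CPM unstimulated, 291, 313 and 291 CPM with IL-22, 248, 264 and 242 CPM with IL-1b, and 257, 314 and 263 CPM with both. The IL-22 libraries were above the unstimulated ones, by less than the test required, at 0.14 (95% interval -0.01 to 0.29, adjusted p = 0.17). With both cytokines the groups overlapped, at 0.04 (-0.11 to 0.19, adjusted p = 0.702).

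**Figure D1:**
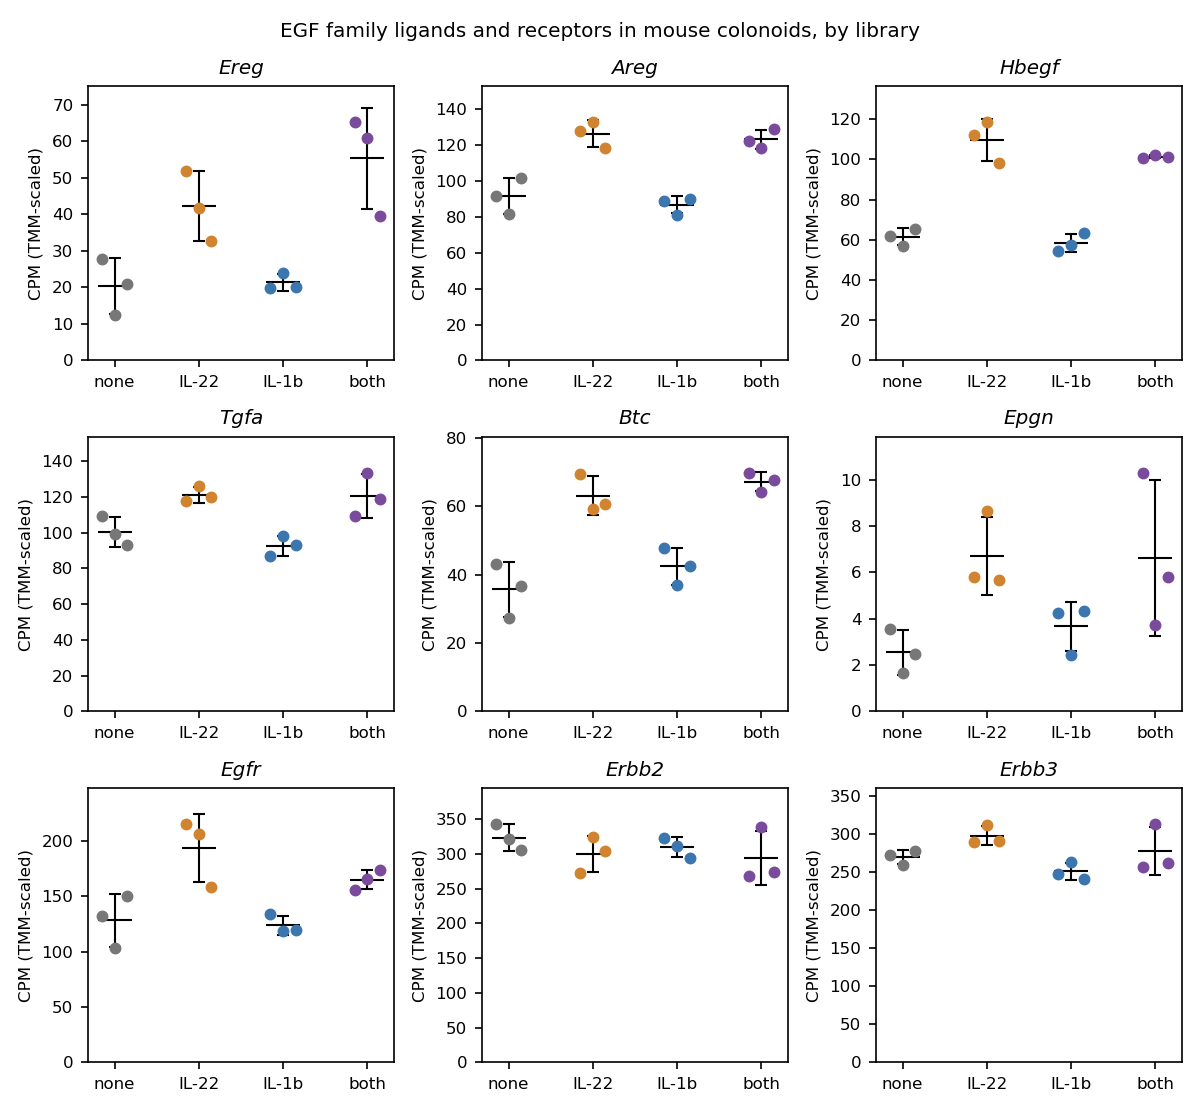
Level of each of the 9 genes in CPM (vertical axis, from 0) by treatment (horizontal axis: none, IL-22, IL-1b and both), with 1 point per library in the order of replicate number and the group mean ± SD (n = 3) in black. The 6 ligand genes and Egfr are higher in the libraries with IL-22, such as Hbegf at 98.5 CPM or more against 65.6 CPM or less, and Erbb2 overlaps across all 4 groups.

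IL-1b alone moved none of the 9 genes past the test. The edgeR test called 0 of 9, where 0.0715% of all genes tested were called, DESeq2 called 0 of 9, and none of the 9 had an unadjusted p under 0.05. Every IL-1b group overlapped the unstimulated group. Of all genes tested, 8.89% had every IL-1b library above every unstimulated one, and 7.85% had every one below. The log2 fold changes ran from -0.12 for Tgfa (95% interval -0.29 to 0.06) to 0.52 for Epgn (-0.37 to 1.42), with Ereg at 0.06 (-0.51 to 0.63), Areg at -0.08 (-0.25 to 0.10), Hbegf at -0.07 (-0.25 to 0.11), Btc at 0.25 (-0.05 to 0.55) and Egfr at -0.05 (-0.32 to 0.22). The interval for Epgn reaches past its change with IL-22, and that for Ereg does not. IL-1b replicate 1 held the most leukocyte RNA, with 104 counts of Ptprc, the common leukocyte antigen, against 0 to 20 in every other library. No family gene was called when that library was left out, alone or with unstimulated replicate 1.

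Adding IL-1b to IL-22 changed none of the 9 genes past the test either. Both cytokines against IL-22 gave 0 calls of 9 by edgeR and 0 by DESeq2, with no unadjusted p under 0.05 among the 9, where 0.0786% of all genes were called, 0.0643% as higher and 0.0143% as lower. Over all genes that is 11 calls, against 336 (120 higher and 216 lower) with no filter beyond 1 count and 82 (26 and 56) by DESeq2, none of them a family gene. Ereg was 0.40 higher on the log2 scale (95% interval -0.09 to 0.89, adjusted p = 0.605) and Egfr stood at -0.23 (-0.49 to 0.04, adjusted p = 0.577), and the other 7 genes lay between -0.11 for Hbegf and 0.09 for Btc. The interaction of IL-1b and IL-22, which asks whether the effect of IL-22 differs when IL-1b is present, was called for 0 of 9 genes and for 0% of all genes by edgeR, although 705 of the 13987 had an unadjusted p under 0.05, none of them among the 9. With no filter beyond 1 count edgeR called 50 genes and DESeq2, with the usual filter, called 1, and none was a family gene. The interaction estimate for Ereg was 0.33 (95% interval -0.42 to 1.09), that for Egfr -0.18 (-0.56 to 0.21) and that for Hbegf -0.04 (-0.29 to 0.21).

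Adding IL-22 to IL-1b is the comparison of both cytokines with IL-1b alone. Ereg, Areg, Hbegf, Tgfa, Btc and Egfr rose, 6 of the 9 genes, where 26.3% of all genes tested were called and 13.3% were called as higher. Ereg rose by 1.38 ± 0.24 on the log2 scale (adjusted p = 0.000999), Hbegf by 0.80 ± 0.08 (adjusted p = 1.29e-05), Btc by 0.66 ± 0.13 (adjusted p = 0.00222) and Areg by 0.51 ± 0.08 (adjusted p = 0.000399). Tgfa rose by 0.38 ± 0.08 (adjusted p = 0.00378), and its groups did not overlap here, as for 22.5% of all genes tested in that direction. Egfr rose by 0.41 ± 0.13 (adjusted p = 0.026), a call lost in 4 of 21 alternatives, each without 1 library (IL-1b replicate 2 or 3, or replicate 2 or 3 of both, adjusted p from 0.0556 to 0.0893). All 6 calls were also made without IL-1b replicate 1, the library richest in leukocyte RNA. Epgn stood at 0.84 ± 0.37 and did not pass (adjusted p = 0.111), though it passed at 1.13 without replicate 2 of both cytokines (adjusted p = 0.0359). In both cytokines against unstimulated, 27.0% of all genes tested were called and 13.7% were called as higher, against 7 of the 9 family genes. Without unstimulated replicate 2 that count was 4 (Ereg, Areg, Hbegf and Btc).

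**Figure D2:**
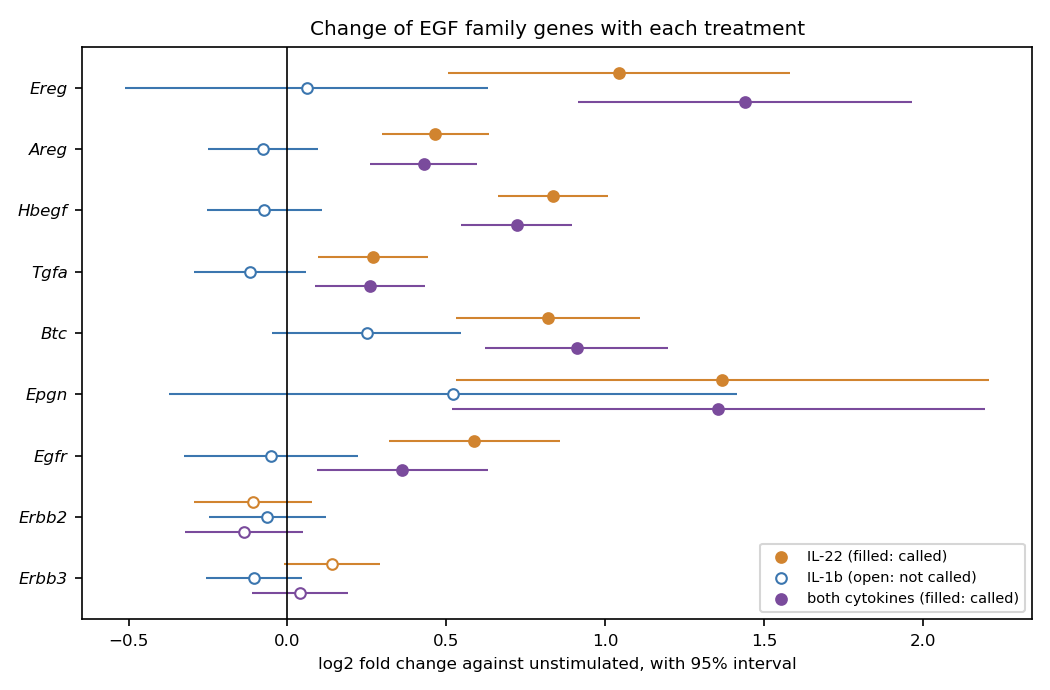
Log2 fold change against unstimulated cultures (horizontal axis, with 95% intervals as bars) for each of the 9 genes (vertical axis) with IL-22, IL-1b or both. The points of IL-22 and of both cytokines lie above 0 for the 6 ligands and Egfr, from 0.26 for Tgfa to 1.44 for Ereg, and all 9 points of IL-1b are open, which marks genes not called.

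To compare genes with one another, counts were divided by exon length and scaled to the same sum in each library (TPM, transcript levels per length). In unstimulated cultures Areg was the most abundant of the 9, at 294 ± 30.8 TPM (SD, n = 3), followed by Erbb2 at 242 ± 17.2, Erbb3 at 175 ± 6.19, Tgfa at 60.4 ± 5.70, Hbegf at 49.5 ± 3.28, Egfr at 44.1 ± 8.06, Btc at 30.8 ± 7.10, Ereg at 19.3 ± 7.46 and Epgn at 5.52 ± 2.14 TPM. In that order Hbegf and Egfr overlapped, as did Egfr and Btc, and Btc and Ereg, and the other neighbours did not overlap. With IL-22 the order of the ligands became Areg at 389 ± 15.2, Hbegf at 84.8 ± 6.38, Tgfa at 69.8 ± 1.48, Btc at 52.3 ± 5.08, Ereg at 38.2 ± 8.61 and Epgn at 13.8 ± 3.16 TPM, so Hbegf stood above Tgfa, and their libraries did not overlap. With both cytokines Btc was at 55.6 ± 2.38 TPM and Ereg at 50.1 ± 12.6 TPM, and their libraries overlapped.

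The 6 ligand transcripts summed to 459 ± 46.8 TPM without stimulation, with libraries from 405 to 486. They summed to 648 ± 30.6 TPM under IL-22, 445 ± 20.1 TPM under IL-1b and 647 ± 11.0 TPM with both, and every library with IL-22, from 613 TPM up, was above every library without it. The 3 receptor transcripts summed to 461 ± 21.8, 464 ± 17.2, 436 ± 12.7 and 438 ± 47.8 TPM in the same order of groups, and these overlapped. The ligand sum per unit of Egfr transcript was 10.5 ± 0.980 without stimulation, 10.3 ± 1.11 under IL-22, 10.5 ± 0.689 under IL-1b and 11.9 ± 0.753 with both. Areg made up 64.0% ± 2.61 of ligand transcripts per exon base without stimulation, 60.1% ± 0.752 under IL-22, 62.4% ± 1.11 under IL-1b and 58.7% ± 2.31 with both.

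The share of Ereg among the ligands was 4.13% ± 1.30 without stimulation (libraries from 2.87% to 5.46%), 5.87% ± 1.10 under IL-22, 4.54% ± 0.692 under IL-1b and 7.75% ± 1.91 with both. The libraries with both lay above the unstimulated range, and those with 1 cytokine overlapped it. Hbegf made up 10.8% ± 0.493 without stimulation, 13.1% ± 0.434 with IL-22 and 12.1% ± 0.265 with both, and its shares with and without IL-22 did not overlap. Tgfa had a lower mean share, 13.2% ± 1.71 without stimulation against 10.8% ± 0.640 with IL-22 and 10.7% ± 1.26 with both. Its shares with IL-22 and with both each overlapped the unstimulated ones, as at 11.47% in IL-22 replicate 3 against 11.35% in unstimulated replicate 3. Among the receptors Egfr made up 9.56% ± 1.64 without stimulation, 13.8% ± 2.16 under IL-22, 9.75% ± 0.550 under IL-1b and 12.5% ± 1.35 with both, and Erbb2 made up 52.5% ± 2.45, 46.3% ± 2.39, 53.0% ± 0.813 and 48.1% ± 1.14. These shares are described without a test.

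**Figure D3:**
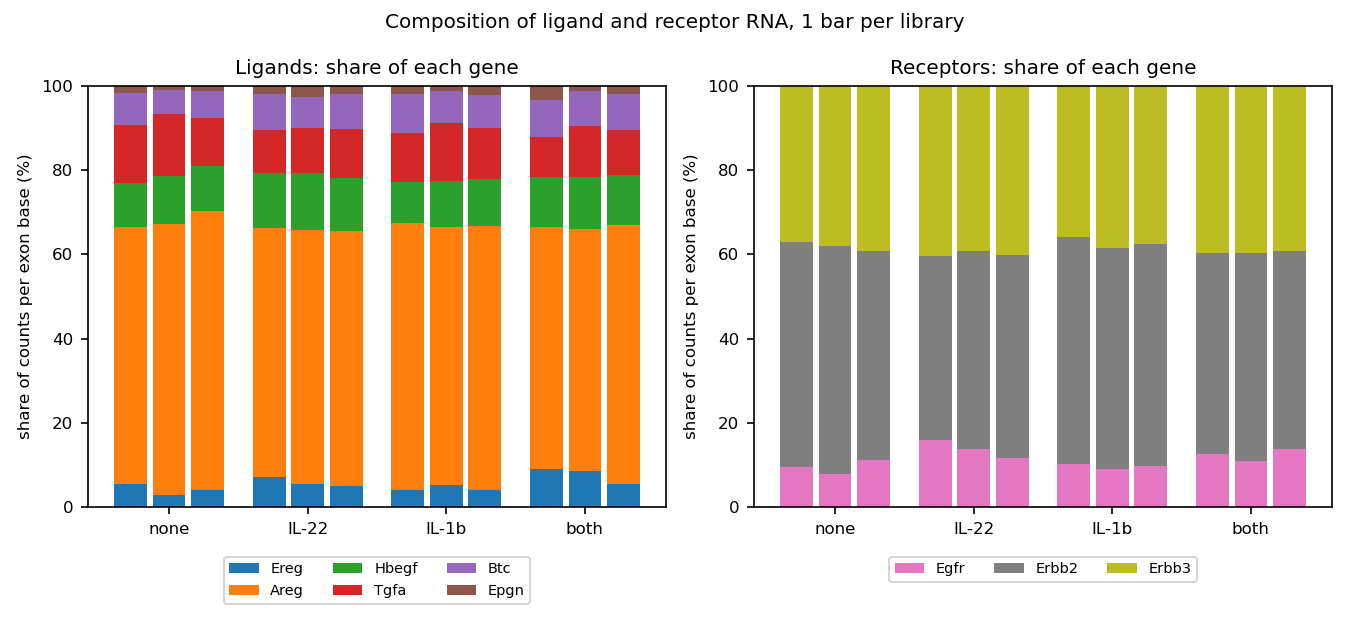
Share of each gene among the 6 ligands (left) and the 3 receptors (right), in percent of counts per exon base (vertical axis), with 1 stacked bar per library and groups on the horizontal axis. Areg fills 57.3% to 66.3% of every ligand bar, and the Egfr segment is taller in the IL-22 group, at 11.6% to 15.9%, than in unstimulated libraries, at 7.97% to 11.2%.

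Of the other family genes only Nrg4, which encodes a neuregulin that binds ERBB4, could be tested, with 25 to 55 counts in each library, and it was not called, at -0.03 with IL-22 and -0.37 with both. Egf itself had 2 to 10 counts in each library, Nrg2 had 16 counts in all 12 libraries together, Nrg1 had 7, the receptor gene Erbb4 had 3 and Nrg3 had 0.

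Genes that act around the ligands and receptors were counted in 5 lists, to be set beside all genes tested, of which 11.9% were called higher and 10.6% lower with IL-22 and 13.7% and 13.3% with both. With both against IL-1b 26.3% were called. Of 7 genes for shedding and trafficking, 2 rose and 2 fell with IL-22 (median log2 fold change 0.13), and 2 rose and 1 fell with both (median 0.10). Over the alternatives 1 to 2 passed in each direction with IL-22, 1 each way without unstimulated replicate 2. Adam10, a metalloprotease that cuts EGF family precursors, rose by 0.53 ± 0.06 with IL-22 (adjusted p = 6.42e-05), from 216 ± 19.3 to 312 ± 18.1 CPM (SD, n = 3), and by 0.47 ± 0.06 with both. Rhbdf2, an inactive rhomboid protein needed to bring ADAM17 to the cell surface, rose by 0.38 ± 0.09 with IL-22, while its relative Rhbdf1 fell by 0.37 ± 0.12 with IL-22 in a call that held in 13 of 21 alternatives. Timp3, an inhibitor of ADAM17, fell by 1.73 ± 0.44 with IL-22 (adjusted p = 0.012) and by 1.68 ± 0.44 with both. Its level was low, at 8.82 ± 2.06 CPM unstimulated, 2.61 ± 1.46 with IL-22 and 2.76 ± 1.54 with both. The call with both was lost without replicate 1 of both cytokines (adjusted p = 0.0517). That with IL-22 held in 21 of 21 alternatives (highest adjusted p = 0.0497). Of the exon bases of Timp3, 1733 are shared with Syn3 on the other strand. Adam17 itself was not called in either comparison. Against IL-1b alone, adding IL-22 raised Adam10 and lowered Timp3, 1 of 7 in each direction.

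Of 13 adaptors and ubiquitin ligases of the receptors, 3 rose and 1 fell with IL-22, 3 rose and 2 fell with both, and 4 rose and 2 fell with both against IL-1b, where 22.5%, 27.0% and 26.3% of all genes tested were called. Over the alternatives the number higher ran from 1 to 5 with IL-22 and from 0 to 3 with both. Gab1, a docking protein downstream of EGFR, had the largest change in each of these comparisons, at -0.83 ± 0.10 with IL-22 (adjusted p = 7.24e-05), -0.92 ± 0.10 with both and -0.77 ± 0.10 with both against IL-1b, and 266 of its exon bases are shared with an antisense gene model, Gm31105. The adaptor genes Gab2, Grb2 and Shc1 rose by 0.38, 0.25 and 0.21 with IL-22. Cblb, a ubiquitin ligase that marks active receptors for breakdown, fell by 0.56 ± 0.14 with both, and Cblc of the same family rose by 0.23 ± 0.06. The 3 genes that rose with both, Cblc, Shc1 and Grb2, all lost their calls when unstimulated replicate 1 or unstimulated replicate 2 was left out. The calls of Gab2 and Shc1 with IL-22 held in 13 and 15 of 21 alternatives.

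Of 14 genes listed as feedback inhibitors or their relatives, 5 rose and 1 fell with IL-22 (median log2 fold change 0.09). With both, 2 rose and 3 fell (median 0.04), and 4 rose and 2 fell with both against IL-1b. Of all genes tested, 22.5%, 27.0% and 26.3% were called in either direction in these comparisons. Spry4, an inhibitor of the RAS and ERK cascade, rose by 0.98 ± 0.15 with IL-22 (adjusted p = 0.000421), from 22.7 ± 1.84 CPM to 45.0 ± 11.4 CPM, and by 0.47 ± 0.16 with both, a call that held in 12 of 21 alternatives. Dusp6, a phosphatase that acts on ERK, rose by 0.47 ± 0.09 with IL-22, and Errfi1, which binds EGFR and blocks its kinase, rose by 0.43 ± 0.10 with IL-22 and by 0.30 ± 0.10 with both, where its call held in 13 of 21 alternatives (highest adjusted p = 0.151). Lrig1 encodes a membrane protein that lowers receptor levels, and Lrig2 and Lrig3 are its relatives. Lrig3 fell by 0.60 ± 0.10 with IL-22 and by 0.87 ± 0.10 with both (adjusted p = 2.64e-05). Lrig1 and Lrig2 fell by 0.42 and 0.30 with both, calls that held in 18 and 17 of 21 alternatives (highest adjusted p = 0.0644 and 0.0953). Under the alternatives the count with both cytokines ran from 0 to 3 higher and from 1 to 4 lower, and none was higher without unstimulated replicate 2 or without any 1 of the libraries with both.

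Of 13 genes of the ERK cascade itself, 1 rose with IL-22, 3 with both and 5 with both against IL-1b, and none fell. In the same comparisons 22.5%, 27.0% and 26.3% of all genes tested were called in either direction, and 11.9%, 13.7% and 13.3% were called higher. Nras, a RAS protein, rose by 0.22 ± 0.07 with IL-22 and by 0.38 ± 0.07 with both, and Hras rose by 0.27 ± 0.07 with both. The IL-22 call of Nras, the only one of this list, held in 12 of 21 alternatives (highest adjusted p = 0.173), and the list's count with IL-22 ran from 0 to 3. Against IL-1b it ran from 1 to 5, with 2 or 3 when any 1 of the libraries compared was left out. Of 15 genes known to respond to ERK, 14 could be tested, and 8 rose and 1 fell with IL-22 (median log2 fold change 0.38), 6 rose and 2 fell with both (median 0.29), and 10 rose and 1 fell with both against IL-1b (median 0.35). Of all genes tested, 11.9%, 13.7% and 13.3% were called higher in these comparisons. Over the alternatives the number higher ran from 5 to 9 with IL-22 and from 4 to 9 with both, and it was 5 and 4 without unstimulated replicate 2. Ier3, an early response gene, rose by 0.60 ± 0.10 with IL-22 (adjusted p = 0.00084), from 64.9 ± 3.30 to 98.4 ± 16.1 CPM, Egr1, an early transcription factor, rose by 0.52 ± 0.12 and Plaur, the urokinase receptor, by 0.47 ± 0.14. Etv4, a transcription factor of the ETS family, fell by 0.92 ± 0.20 with IL-22 (adjusted p = 0.00518) and by 1.08 ± 0.21 with both, and Etv5 fell by 0.73 ± 0.24 with both, a call that held in 12 of 21 alternatives (highest adjusted p = 0.194). Ccnd1, which encodes cyclin D1, rose by 0.60 ± 0.13 with both, though 1100 of its exon bases are shared with LTO1. With IL-1b alone, edgeR called 0 of the 61 tested genes of these 5 lists, and DESeq2 called 0. In that comparison 5 of the 61 had an unadjusted p under 0.05 in edgeR, as did 1338 of the 13987 genes tested. For both cytokines against IL-22, edgeR called 0 of 61. Here 12 of the 61 had an unadjusted p under 0.05, against 1440 of the 13987 genes tested. Of those 12, 7 were on the feedback list, and all 7 were lower. Under the alternatives, DESeq2 included, at most 1 shedding gene passed as higher. At most 3 genes of the feedback list and 1 ERK response gene passed as lower.

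**Figure D4:**
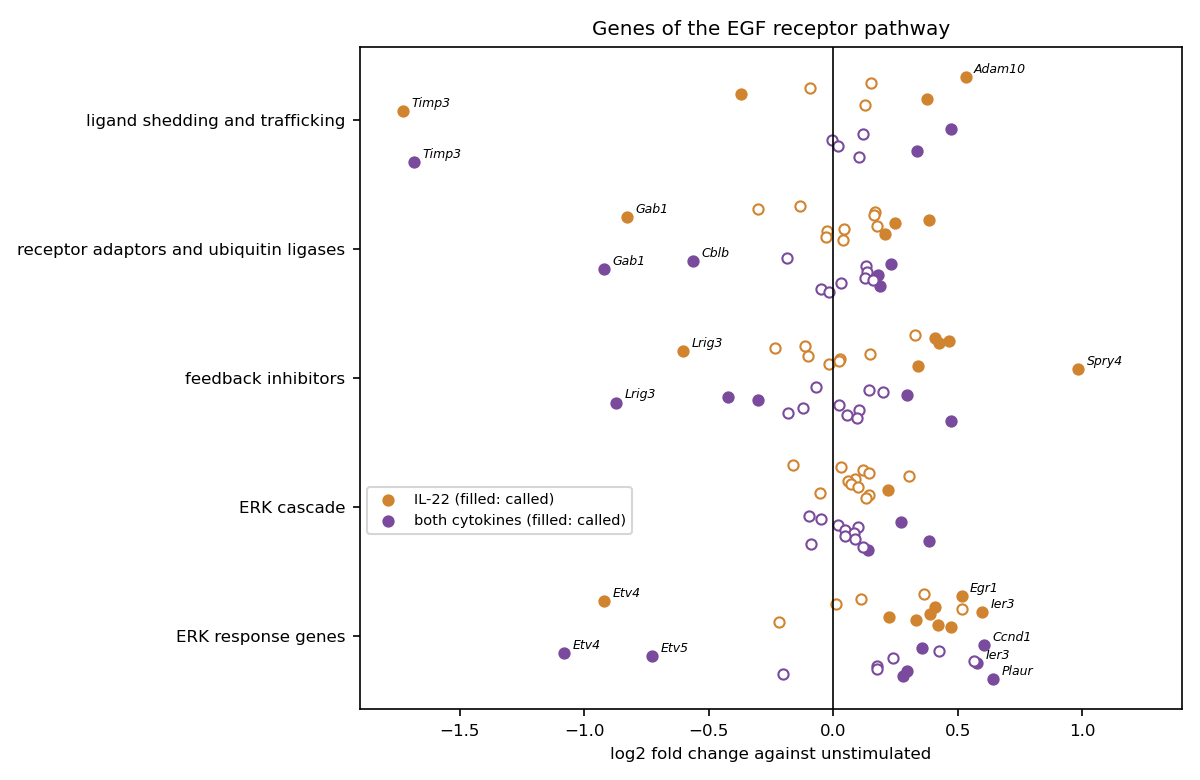
Log2 fold change against unstimulated cultures (horizontal axis) of each tested gene in the 5 pathway lists (vertical axis) with IL-22 or both cytokines, filled where called. Among the ERK response genes 8 filled points of IL-22 lie to the right of 0 and Etv4 lies to the left, at -0.92.

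The levels of several family genes ran closely with those of other genes over the 12 libraries, as a description of libraries that share the same treatments. Among about 11153 tested genes with a mean of 5 CPM or more, the gene most like Hbegf in log2 CPM was Klf10, which encodes a zinc finger transcription factor, with Pearson's r of 0.997, then Fam102b at 0.990 and Rbms1 at 0.988. Rbms1 was also among the 3 most like Areg, at 0.979, behind Dnajb1, a heat shock co-chaperone gene, at 0.985 and Ppfibp1 at 0.981. Genes most like Egfr included Clca4a at 0.982 and Errfi1, the EGFR inhibitor named above, at 0.967. Genes most like Tgfa included Sema6d at 0.985 and Arfgef1 at 0.974, and Btc was most like Frk at 0.977, Nabp1 at 0.974 and Nipal1 at 0.963. Ereg was most like Dhx15 at 0.938, LOC108167440 at 0.937 and Nelfe at 0.931, and Epgn most like Lamp2 at 0.951, Rab5a at 0.932 and Brwd3 at 0.925. No family gene was among the 3 most like another.

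The 4 ligand genes on chromosome 5 sit beside a cluster of chemokine genes, and the tested protein-coding genes within 500 kb on either side were set beside them after the values had been seen. Of the 8, 3 rose and 1 fell with IL-22, and 5 rose and 1 fell with both, where 22.5% and 27.0% of all genes tested were called. Cxcl5 and Cxcl1, which encode chemokines that attract neutrophils, rose with IL-22 by 2.50 (adjusted p = 0.000429) and 1.63 (adjusted p = 0.00199), and Rassf6 rose by 0.36 (adjusted p = 0.00166). With both cytokines Cxcl2 rose as well, by 3.71 (adjusted p = 0.000471), beside Cxcl5 at 3.58 and Cxcl1 at 2.40. Afm, which encodes the vitamin E binding protein afamin, fell by 0.78 with IL-22 (adjusted p = 0.000906). Mthfd2l, the nearest tested gene before Epgn, stood at 0.43 and was not called with IL-22 (adjusted p = 0.177), and was called at 0.67 with both (adjusted p = 0.0324). Pf4, which encodes platelet factor 4, was not called, at -0.07 with IL-22 (adjusted p = 0.938) and 0.84 with both (adjusted p = 0.138). Parm1, the nearest tested gene after Btc, stood at 0.13 with IL-22 (adjusted p = 0.152) and -0.05 with both (adjusted p = 0.588) and was not called.

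**Figure D5:**
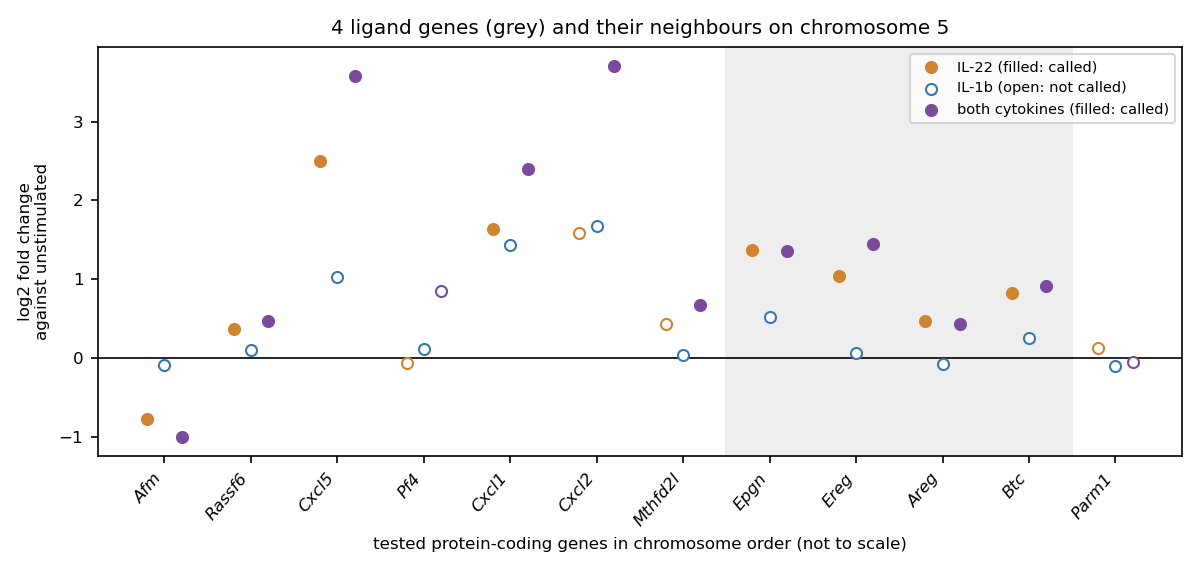
Log2 fold change against unstimulated cultures (vertical axis) of the tested protein-coding genes around the 4 ligand genes on chromosome 5, in chromosome order (horizontal axis, not to scale), with the ligand genes on grey. The 4 ligand genes are filled for IL-22 and for both cytokines, Cxcl5 stands higher at 2.50 with IL-22 and Parm1 stays near 0, at 0.13.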

How the data were processed

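Polyadenylated RNA was sequenced from 12 colonoid libraries. The authors deposited raw counts per gene symbol with no normalization, on build mm10 per the submitters' processing notes. Aligner, counter, counting strand and annotation: not given in the sources used here. The filterByExpr function of edgeR 4.0.16 (R 4.3.3) chose the genes to test, and libraries were scaled by TMM (factors 0.957 to 1.04) and fitted with 1 mean per group over all 12 libraries by the edgeR quasi-likelihood method, and the call threshold was an adjusted p of 0.05 (Benjamini-Hochberg over the 13987 genes tested). SE denotes the standard error of a log2 fold change, and intervals are 95%.

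The family genes and pathway lists were chosen with earlier results of these data known. The text names all 9 family genes, up to 4 called genes of each list in a comparison with the largest change, and for each called family gene the 3 genes whose log2 CPM (prior count 2) correlated best with it. Some of the latter are withheld and not reported here. Genes named outside this are neighbours on chromosome 5, list genes stated as not called and other genes of the family.

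Exon lengths and positions are from GENCODE M21 on mm10 (26762 symbols matched directly, 512 by a synonym, 8595 unmatched), and promoters from RefSeq on GRCm38.p6. Alternatives were the Wald test of DESeq2 1.42.0, its size factors in edgeR, scaling by total counts alone, a looser filter (1 count in all) or a stricter one (1 CPM in 6 libraries), a replicate block, a fit of the compared groups by themselves, a lowess correction (span 0.3) for the trend on count per exon base, each library left out in turn, and 2 libraries (unstimulated replicate 1, IL-1b replicate 1) left out together. Running the pathway lists under them, and the comparison of chromosome neighbours, were chosen after seeing the data. The test was tried on simulated data of this design.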

Additional observations from a re-analysis of the deposited data

How the results depend on the processing

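Across 21 alternatives Ereg, Areg, Hbegf and Btc kept their calls with IL-22, with both cytokines and with both against IL-1b, Egfr kept its call with IL-22, and no family gene was called with IL-1b alone, or for both against IL-22. The interaction was not fitted from compared groups alone, and no family gene was called for it in the alternatives run. Leaving out 1 library at a time, the number of family genes called ran from 5 to 7 with IL-22, from 4 to 7 with both cytokines, from 5 to 6 for both against IL-1b, and was 0 in the other comparisons. The count of 4 came without unstimulated replicate 2, which had the lowest Ereg, Areg, Hbegf, Btc, Epgn, Egfr and Erbb3 of its group. Among the other alternatives it was 5 to 7 with both cytokines and 6 or 7 with IL-22. The cause was not tested. Total counts as the only scaling changed the split of all IL-22 calls from 1661 higher and 1483 lower to 1206 and 1991.

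With the replicate block 7 family genes were called with IL-22, 6 with both cytokines (Egfr at 0.37, adjusted p = 0.0591) and 6 for both against IL-1b, among 2819, 3456 and 3345 genes in all. Same-numbered libraries of different groups correlated between -0.29 and 0.22 over 18 pairs, and 2 libraries correlated best with their own number, so they were not treated as pairs. Removing the trend on count per exon base moved the change of Areg with IL-22 from 0.47 to 0.35. With coding length in place of exon length, Tgfa had the largest share of the ligands in unstimulated cultures, at 35.2%, and Areg 23.8%. The order of levels between genes therefore rests on the length used.

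Depth limits Epgn most, with 9 to 51 counts in a library.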
